A study of Homo sapiens with 33 samples.

Results

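The 39 genes described here act in homologous recombination and in the Fanconi anaemia pathway of DNA repair, and were followed through 3 comparisons of GABPB1 knockout cells with control cells of the same line. They were chosen by gene name in the authors' deposited tables, and all 39 were found in each table. The table of the A-375 total knockout holds 14332 entries, that of its long-form knockout 14160 and that of the UM-UC-3 total knockout 13310. No filter on low values removed a member, and every one had a fold change, a standard error and an adjusted p in each table.

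Homologous recombination repairs a double-strand break by copying the sister chromatid, so it acts in S and G2 phase. The broken ends are cut back to single strands, BRCA1, PALB2, BRCA2 and a group of strand-exchange factors prepare them to pair with the intact copy, and the joined DNA molecules are later separated by helicases and nucleases. In the Fanconi pathway a core complex with the ubiquitin ligase FANCL and its partner enzyme UBE2T marks the FANCI-FANCD2 pair with ubiquitin at a crosslink between the DNA strands, and the crosslink is then cut out and the break repaired by recombination. Inherited loss of BRCA1 or BRCA2 raises the risk of breast and ovarian cancer, and inherited loss of Fanconi genes causes bone marrow failure.

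The total knockout of A-375, a human melanoma line, comprised 12 libraries of 9 clones: 4 of 4 clones with exons 2 to 9 of GABPB1 deleted (B1KO) and 8 of 5 clones with exon 2 deleted (B1X2KO). The total knockout of UM-UC-3, a human bladder cancer line, comprised 9 libraries of 8 clones, 4 of 4 B1KO clones and 5 of 4 B1X2KO clones. The long-form knockout (B1LKO) was made in A-375, with exon 9 deleted, in 2 libraries of 2 clones. The controls were cells edited at ROSA26 (A-375, 4 libraries of 3 clones; UM-UC-3, 3 of 3) and unedited parental cells (A-375, 2 libraries; UM-UC-3, 1), which sums to 33 libraries. The edited clones, ROSA26 controls included, came from cells given a Cas9 plasmid and sorted by flow cytometry. The names of the tables call the reference parental, and the sources used here do not say whether the ROSA26 clones entered the fits.

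GABPB1 is the subunit that joins GABPA, a DNA-binding protein of the ETS family, to form the factor GABP, and its long form (GABPB1L) is distinguished from the short form (GABPB1S) by its end. In the authors' deposited tables GABPB1L was lower by a log2 fold change of -10.60 ± 0.70 (standard error, SE) in the A-375 total knockout (adjusted p = 1.61e-47), by -12.79 ± 1.47 in the long-form knockout (1.78e-14) and by -12.60 ± 0.71 in the UM-UC-3 total knockout (1.32e-66). In the authors' deposited table for the long-form knockout, the short-form entry was higher by 13.95 ± 1.04 (adjusted p = 3.55e-37) and the short-form entry that lacks exon 2 was lower by -12.00 ± 1.48 (1.76e-12), so that the form lacking exon 2 stood on the control side of that comparison; its origin was not tested. The authors' deposited tables give 1 mean normalized count per gene over all libraries of a fit and no value per library, so neither the spread between clones nor the depth of a library can be shown. Of 7 melanocyte markers, 5 had an entry for UM-UC-3 and 4 for the A-375 total knockout, and of 11 urothelial and epithelial markers 4 had one for each line, so the presence of an entry does not separate the lines. In the authors' deposited tables SOX10 had a mean normalized count of 93.6 in UM-UC-3 and 14704 in A-375, and S100B of 53.1 and 1586. MITF had 357 in UM-UC-3 and 686 in A-375, and PMEL was at 20.1 in A-375. DCT (109) and MLANA (38.9) went the other way, with an entry in UM-UC-3 and none in the A-375 total knockout. KRT18 had 8029 in UM-UC-3 and 4835 in the A-375 total knockout, KRT8 2449 and 1064, KRT7 133 and 79.4, and GATA3 194.5 and 101, in the same order. In the A-375 long-form comparison KRT18 had 13236, KRT8 2373, KRT7 75.3 and GATA3 285. Each table was scaled on its own, so these counts do not rank the lines.

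Promoter sequence was available for 36 of the 39 genes from RefSeq (GRCh38.p14), as 300 bases per start, 250 before it and 50 after. NBN, RAD54B and FANCI were not matched. On either strand, the letters CCGGAAG, the core bound by GABP and other ETS factors, were found for 11 of the 36 genes (30.6%), against 12.2% of 27305 genes of the RefSeq table and 21.3% of the 10549 genes that also had an entry in the A-375 total table. TTTCGCG or TTTGGCG, which E2F factors bind, were found for 4 of 36 (11.1%), against 3.85% of all genes and 6.40% of those measured, and TTTGAA, the CHR element of cell-cycle genes, for 4 of 36 (11.1%), against 18.2% of all and 13.9% of those measured. None of the searched motifs contains another, and a match is a description of the sequence and not a measured binding site.

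The promoters of TOPBP1, CHEK2 and FANCL are printed because these genes were lower in the total knockout of both lines. Those of RAD50, RAD51D and FANCD2 are printed because they passed in UM-UC-3 and carry CCGGAAG, so their CCGGAAG matches follow from the choice. RAD50 was the only member that was higher in a comparison, and RAD51D and FANCD2 were lower. Each printed promoter runs 5′ to 3′ on the strand of its gene, with motif matches in capitals. This holds also where the match is to the other strand (as CTTCCGG for the ETS core and as CGCGAAA for E2F). The windows are chr3:133661892-133662191 (minus strand) for TOPBP1, chr22:28741771-28742070 (minus) for CHEK2, chr2:58241276-58241575 (minus) for FANCL, chr5:132556727-132557026 (plus) for RAD50, chr17:35119709-35120008 (minus) for RAD51D and chr3:10026187-10026486 (plus) for FANCD2.
TOPBP1: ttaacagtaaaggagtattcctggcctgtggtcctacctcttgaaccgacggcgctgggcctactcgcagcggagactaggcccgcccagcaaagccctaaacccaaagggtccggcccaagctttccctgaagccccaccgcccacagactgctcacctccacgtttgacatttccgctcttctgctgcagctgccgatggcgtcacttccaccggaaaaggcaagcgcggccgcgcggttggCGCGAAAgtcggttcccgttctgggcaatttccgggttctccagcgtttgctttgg
CHEK2: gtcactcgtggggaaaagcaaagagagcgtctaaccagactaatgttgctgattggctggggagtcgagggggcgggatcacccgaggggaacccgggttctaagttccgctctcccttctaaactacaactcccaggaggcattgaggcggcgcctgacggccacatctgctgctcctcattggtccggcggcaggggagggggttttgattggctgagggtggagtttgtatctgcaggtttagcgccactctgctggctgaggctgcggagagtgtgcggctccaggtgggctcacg
FANCL: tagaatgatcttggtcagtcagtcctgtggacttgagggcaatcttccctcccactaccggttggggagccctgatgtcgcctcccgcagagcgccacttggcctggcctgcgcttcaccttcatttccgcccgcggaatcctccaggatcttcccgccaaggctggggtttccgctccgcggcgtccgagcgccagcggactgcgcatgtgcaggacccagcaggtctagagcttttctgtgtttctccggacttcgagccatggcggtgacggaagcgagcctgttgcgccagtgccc
RAD50: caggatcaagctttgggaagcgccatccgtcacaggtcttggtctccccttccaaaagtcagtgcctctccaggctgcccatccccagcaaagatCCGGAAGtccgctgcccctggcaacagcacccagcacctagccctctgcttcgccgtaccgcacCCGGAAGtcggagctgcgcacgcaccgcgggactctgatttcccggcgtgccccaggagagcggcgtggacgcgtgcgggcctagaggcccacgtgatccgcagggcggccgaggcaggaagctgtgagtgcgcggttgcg
RAD51D: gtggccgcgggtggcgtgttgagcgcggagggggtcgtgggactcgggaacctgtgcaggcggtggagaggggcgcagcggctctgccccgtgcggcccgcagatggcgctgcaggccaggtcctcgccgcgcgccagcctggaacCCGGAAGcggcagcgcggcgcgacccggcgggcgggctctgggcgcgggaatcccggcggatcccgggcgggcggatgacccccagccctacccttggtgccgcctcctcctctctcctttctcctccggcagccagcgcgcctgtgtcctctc
FANCD2: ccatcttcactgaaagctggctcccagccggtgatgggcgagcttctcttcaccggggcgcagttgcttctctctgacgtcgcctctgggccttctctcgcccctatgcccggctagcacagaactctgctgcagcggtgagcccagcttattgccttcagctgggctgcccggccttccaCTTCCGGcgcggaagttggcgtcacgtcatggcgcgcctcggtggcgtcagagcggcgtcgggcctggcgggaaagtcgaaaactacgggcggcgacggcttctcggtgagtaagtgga
RAD50 holds CCGGAAG at 2 places, RAD51D at 1 and FANCD2 at 1, TOPBP1 holds 1 E2F match and none to CCGGAAG, and CHEK2 and FANCL hold none of the letters searched. Among the 11 genes with CCGGAAG, 0 were lower in the A-375 total knockout (median log2 fold change -0.39), against 3 of the 25 without it (-0.68), in the authors' deposited table. For UM-UC-3, 2 of the 11 were lower and 1 was higher (median -0.27), against 8 of the 25 lower (-0.50), in the authors' deposited table. Of all genes tested, 5.74% were lower in the A-375 total knockout and 14.2% in UM-UC-3, and 0 of 11 lies close to the first share. FANCI and RAD54B, lower in both lines, had no promoter sequence and are in neither group. These splits were not tested.

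In the total knockout of both lines most of the recombination and Fanconi genes had fold changes below 0, and a minority passed the threshold. Genes passing the threshold, an adjusted p under 0.05 in the DESeq2 Wald test over the whole table, were 5 of 39 in A-375, all lower (12.8%, against 5.74% of all genes tested lower, 5.07% higher and 10.8% either way). In UM-UC-3, 12 of 39 were lower (30.8%, against 14.2% of all genes) and 1 was higher (2.56%, where 2260 of 13310 genes tested were higher). In either direction this makes 33.3% of the members, close to the 31.1% of all genes. In the long-form knockout of A-375, 0 of 39 passed (against 0.904% of all genes in either direction, 0.664% lower and 0.240% higher), while 6 had an unadjusted p under 0.05, all on the higher side (15.4%, against 4.61% of all genes on that side). The corresponding unadjusted counts were 16 in the A-375 total knockout, all lower (41.0%, against 14.0% of all genes lower and 25.4% in either direction), and 23 in UM-UC-3, of which 21 were lower (53.8%, against 18.6% of all genes lower and 41.2% in either direction).

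The median log2 fold change of the 39 genes was -0.61 in the A-375 total knockout (range -1.31 to 0.11), against -0.05 over all genes, in the authors' deposited table. It was -0.47 in UM-UC-3 (range -1.18 to 0.32), against 0.03 over all genes. In the long-form knockout it was 0.22 (range -0.16 to 0.74), against 0.02 over all genes. In number, 37 of 39 genes lay below 0 in the A-375 total knockout and 33 of 39 in UM-UC-3, whereas 34 of 39 lay above 0 in the long-form knockout. The median SE of the 39 genes was 0.339 in the A-375 total knockout, 0.213 in UM-UC-3 and 0.226 in the long-form knockout, and the smallest Wald statistic that passed over all genes was 2.78, 2.42 and 3.51 in size, in the same order. RNA was taken from whole cultures, so fewer cells in S and G2 phase and less RNA of these genes per cell cannot be told apart.

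**Figure D1:**
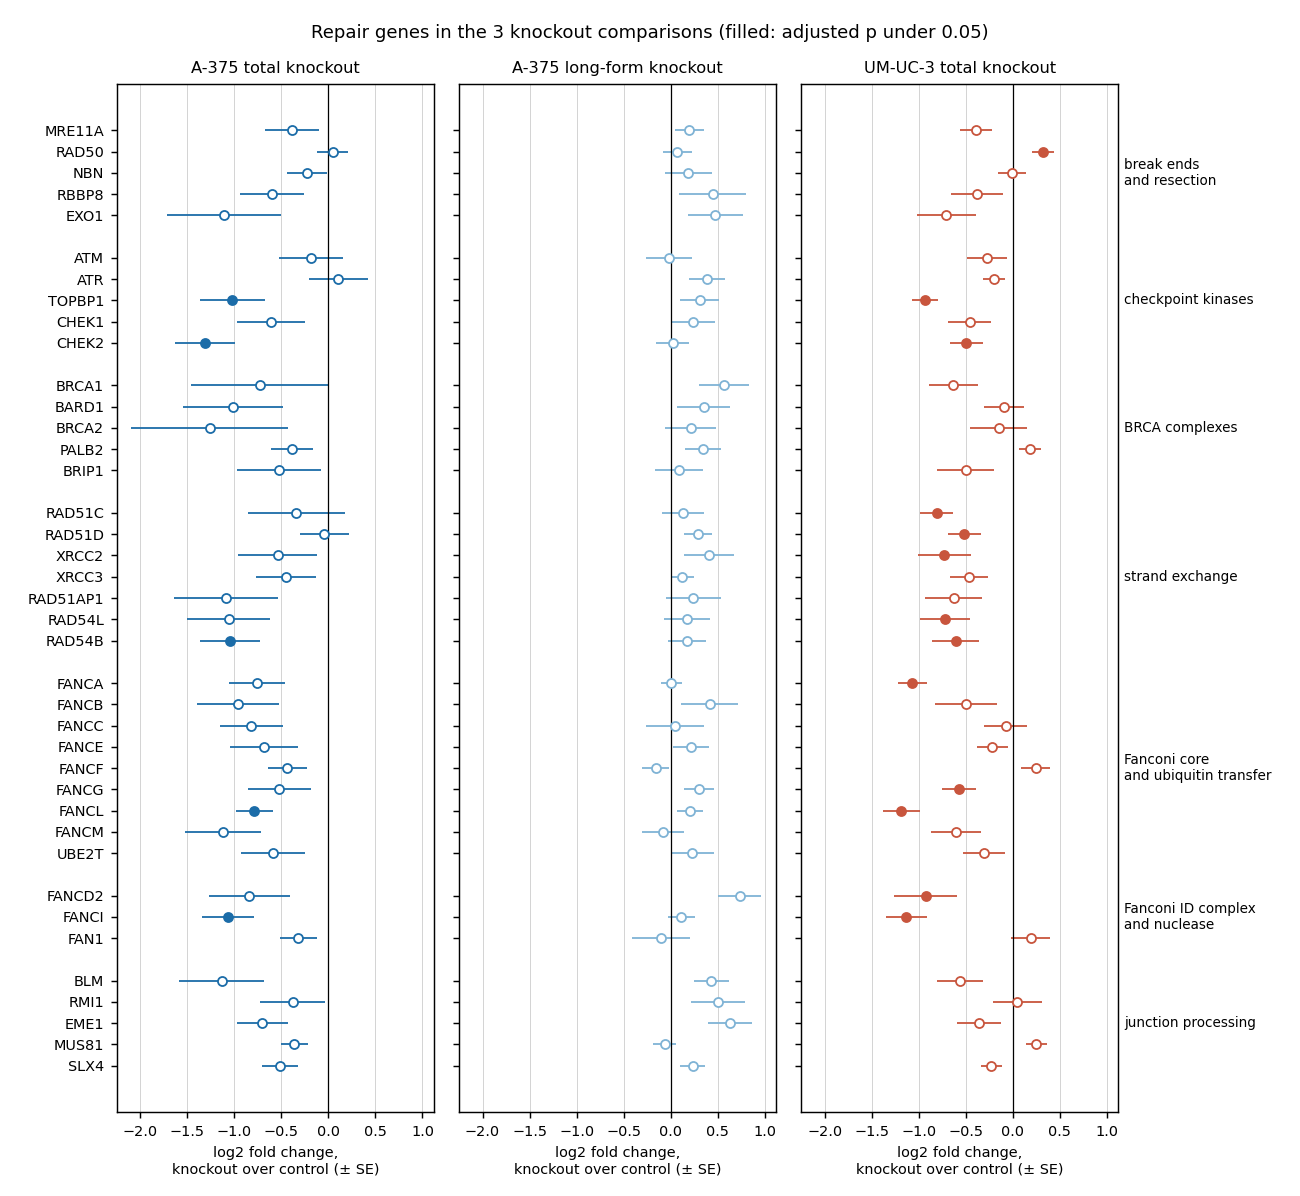
Log2 fold change of knockout over control with its standard error (bars) for the 39 repair genes, from the authors' deposited tables, by role. Filled points have an adjusted p under 0.05: 5 in the A-375 total knockout, 0 in the long-form knockout and 13 in UM-UC-3, where RAD50 is the 1 filled point to the right of 0.

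Of the 5 genes that recognise and cut back break ends, 0 fell and 1 rose. RAD50, with MRE11A and NBN part of the complex that binds broken ends, rose in UM-UC-3 (log2 fold change 0.32 ± 0.12, adjusted p = 0.0216), where its level was 125% of the control, in the authors' deposited table. RAD50 overlaps AC116366.3 on the same strand, with which its reads may be shared. In the A-375 total knockout RAD50 stood at 0.04 ± 0.17 (adjusted p = 0.901) in the authors' deposited table. MRE11A, its partner, was at -0.38 ± 0.29 in the A-375 total knockout (adjusted p = 0.410) and -0.39 ± 0.17 in UM-UC-3 (0.0636), in the authors' deposited tables. NBN was at -0.23 ± 0.21 in the A-375 total knockout and -0.01 ± 0.15 in UM-UC-3. The nuclease EXO1, which extends the cut, had -1.11 ± 0.61 in the A-375 total knockout (adjusted p = 0.234) and -0.71 ± 0.31 in UM-UC-3 (0.0680), in the authors' deposited tables. RBBP8 (CtIP), which starts it, was at -0.60 ± 0.34 in the A-375 total knockout and -0.38 ± 0.27 in UM-UC-3.

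Among the checkpoint genes, 2 of 5 fell in both lines. CHEK2, the kinase that ATM activates at double-strand breaks, fell by 1.31 ± 0.32 on the log2 scale in the A-375 total knockout (adjusted p = 0.00177), the largest decrease among the 39 genes in that authors' deposited table, to 40.3% of the control. In UM-UC-3 CHEK2 fell by 0.49 ± 0.17 (adjusted p = 0.0185), to 71.0% of the control, in the authors' deposited table. TOPBP1, the protein that activates ATR, fell to 49.1% of the control in the A-375 total knockout (-1.02 ± 0.35, adjusted p = 0.0341) and to 52.4% in UM-UC-3 (-0.93 ± 0.14, adjusted p = 9.32e-10), in the authors' deposited tables. The apical kinases did not pass: ATM was at -0.19 ± 0.34 in the A-375 total knockout and -0.27 ± 0.21 in UM-UC-3, and ATR at 0.11 ± 0.32 and -0.20 ± 0.12, in the same order of comparisons in the authors' deposited tables. CHEK1, the kinase downstream of ATR, was at -0.61 ± 0.36 in the A-375 total knockout and -0.46 ± 0.23 in UM-UC-3. CHEK2 has 4 annotated pseudogene copies, so its read count is uncertain where the counting could not separate them, and MRE11A, RBBP8 and RAD51AP1 have 1 each.

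None of the 5 genes of the BRCA complexes passed in any comparison. BRCA2, which acts on the single strands at a break, had the second largest decrease of all members in the A-375 total knockout, at -1.26 ± 0.83 (95% interval -2.90 to 0.37, adjusted p = 0.339), and -0.15 ± 0.30 in UM-UC-3 (adjusted p = 0.744), in the authors' deposited tables. BRCA1 was at -0.73 ± 0.73 in the A-375 total knockout (95% interval -2.16 to 0.69, adjusted p = 0.561) and at -0.63 ± 0.26 in UM-UC-3, just outside the threshold (0.0502), in the authors' deposited tables. Its partner BARD1 was at -1.02 ± 0.53 in the A-375 total knockout and -0.09 ± 0.21 in UM-UC-3. PALB2, which bridges BRCA1 and BRCA2, was at -0.39 ± 0.22 in the A-375 total knockout and 0.19 ± 0.12 in UM-UC-3, in the authors' deposited tables. The helicase BRIP1 was at -0.53 ± 0.44 in the A-375 total knockout and -0.50 ± 0.30 in UM-UC-3. In the A-375 total knockout the median SE of this group, 0.530, was the widest of the 7 roles.

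The strand-exchange factors (RAD51C, RAD51D, XRCC2, XRCC3, RAD51AP1, RAD54L and RAD54B) included 5 of 7 genes that fell in UM-UC-3 (71.4%, against 14.2% of all genes), and all 7 were lower at an unadjusted p under 0.05 (against 18.6% of all genes). Whether this share differs from that of other roles was not tested. RAD51C, which forms complexes with RAD51D, XRCC2 and XRCC3, fell to 57.1% of the control in UM-UC-3 (-0.81 ± 0.18, adjusted p = 6.55e-05), in the authors' deposited table. RAD51D fell by 0.51 ± 0.17 (adjusted p = 0.0127) and XRCC2, its direct partner, by 0.73 ± 0.28 (0.0348) in UM-UC-3, in the authors' deposited table. The DNA motor proteins of strand exchange fell as well in UM-UC-3, RAD54L by 0.72 ± 0.26 (adjusted p = 0.0248) and RAD54B by 0.60 ± 0.25 (0.0481), in the authors' deposited table. XRCC3, the partner of RAD51C, was at -0.47 ± 0.20 (adjusted p = 0.0643), and RAD51AP1, which promotes strand pairing, at -0.63 ± 0.30 (0.0989).
In the A-375 total knockout RAD54B was the 1 of these 7 genes that passed, at -1.05 ± 0.31 (adjusted p = 0.0146), 48.4% of the control, in the authors' deposited table. RAD54L had nearly the same fold change in A-375, -1.06 ± 0.44, with a wider SE (adjusted p = 0.0989). RAD51C was at -0.34 ± 0.52 and RAD51D at -0.05 ± 0.26 in the A-375 total knockout, in the authors' deposited table. RAD54B and RAD51D each overlap a same-strand gene (FSBP and RAD51L3-RFFL), with which reads may be shared, and the same holds for CHEK1 (STT3A).

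Of the 9 Fanconi core and ubiquitin-transfer genes, FANCL fell in both lines. FANCL, the ubiquitin ligase, fell to 57.8% of the control in the A-375 total knockout (-0.79 ± 0.20, adjusted p = 0.00225) and to 44.0% in UM-UC-3 (-1.18 ± 0.20, adjusted p = 7.88e-08), the lowest value of a member in UM-UC-3, in the authors' deposited tables. FANCA, a scaffold of the core complex, fell to 47.8% of the control in UM-UC-3 (-1.07 ± 0.16, adjusted p = 1.41e-09), and was at -0.76 ± 0.30 in the A-375 total knockout (0.0754), in the authors' deposited tables. FANCG, which binds FANCA, fell by 0.57 ± 0.18 in UM-UC-3 (adjusted p = 0.00798) and was at -0.53 ± 0.34 in the A-375 total knockout. FANCM, the translocase that anchors the core complex to DNA, was just outside the threshold in both, at -1.12 ± 0.40 in the A-375 total knockout (adjusted p = 0.0506) and -0.60 ± 0.27 in UM-UC-3 (0.0675), in the authors' deposited tables. FANCB, FANCC, FANCE, FANCF and UBE2T passed in neither line. Their log2 fold changes lay between -0.97 and -0.44 in the A-375 total knockout and between -0.50 and 0.24 in UM-UC-3.

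Of the pair that this ligase marks, FANCI fell in both lines and FANCD2 in UM-UC-3. FANCI fell to 47.6% of the control in the A-375 total knockout (-1.07 ± 0.28, adjusted p = 0.00319) and to 45.6% in UM-UC-3 (-1.13 ± 0.22, adjusted p = 6.35e-06), in the authors' deposited tables. With the mean normalized count of 1888 for FANCI in the A-375 total table, this corresponds to 1631 in knockout and 3426 in control libraries if the parental libraries alone were the controls, and to 1381 and 2901 if all A-375 controls were. FANCD2 fell by 0.93 ± 0.33 in UM-UC-3 (adjusted p = 0.0209), and was at -0.84 ± 0.43 in the A-375 total knockout (0.203, 95% interval -1.69 to 0.01), in the authors' deposited tables. FANCD2 has 1 annotated pseudogene, so its read count is uncertain where the counting could not separate the copies. The nuclease FAN1, which the ubiquitin-marked pair recruits, did not pass in either line, at -0.32 ± 0.20 in the A-375 total knockout and 0.19 ± 0.21 in UM-UC-3.

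None of the 5 junction-processing genes passed in any of the 3 comparisons. The helicase BLM, which dissolves double Holliday junctions with RMI1, was at -1.13 ± 0.45 in the A-375 total knockout (adjusted p = 0.0842) and -0.56 ± 0.24 in UM-UC-3 (0.0610), in the authors' deposited tables. RMI1 was at -0.38 ± 0.35 in the A-375 total knockout and 0.05 ± 0.26 in UM-UC-3. The scaffold SLX4 was at -0.52 ± 0.19 in the A-375 total knockout (adjusted p = 0.0561) and -0.23 ± 0.11 in UM-UC-3 (0.105), in the authors' deposited tables. EME1, the partner of the nuclease MUS81, was at -0.70 ± 0.27 in the A-375 total knockout and -0.36 ± 0.23 in UM-UC-3.
MUS81 itself had opposite signs, -0.36 ± 0.15 in the A-375 total knockout (adjusted p = 0.0862) and 0.25 ± 0.11 in UM-UC-3 (0.0774), in the authors' deposited tables.

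The lines shared 5 lowered genes: CHEK2, FANCI, FANCL, RAD54B and TOPBP1 were lower in the total knockout of UM-UC-3 and of A-375. They make up 41.7% of the 12 lowered members in UM-UC-3 and 100% of the 5 in A-375, or 12.8% of all 39. Over the 12624 genes in both tables, 262 were lower in both, which is 14.2% of the 1846 lower in UM-UC-3, 35.8% of the 731 lower in A-375 and 2.08% of all. Without regard to the threshold, 32 of 39 members (82.1%) lay below 0 in both lines, against 29.8% of all shared genes. Across the 39 genes, which share their libraries and are not independent, the fold changes of the lines had a Pearson r of 0.48, against 0.34 across all shared genes.

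The difference between lines was tested gene by gene, as the UM-UC-3 log2 fold change minus that of A-375, with a 2-sided normal test and Benjamini-Hochberg adjustment over 12621 genes. MUS81 was the 1 member that passed (2.56%, against 6.33% of all genes on the higher side, 4.12% on the lower and 10.5% on either), with a difference of 0.61 ± 0.19 (95% interval 0.25 to 0.98, adjusted p = 0.0164), from the authors' deposited tables. FANCF, a core complex subunit, was next, at 0.24 in UM-UC-3 and -0.44 in A-375 (difference 0.68 ± 0.26, adjusted p = 0.0659). The genes that passed in UM-UC-3 and not in A-375 were not shown to differ between the lines: for FANCA the difference was -0.31 ± 0.34 (95% interval -0.97 to 0.35, adjusted p = 0.604), and for RAD51C -0.47 ± 0.55 (-1.54 to 0.61, 0.631). CHEK2, with the larger decrease in A-375, differed by 0.82 ± 0.37 (95% interval 0.10 to 1.53, adjusted p = 0.130). The median difference of the 39 genes was 0.29, against 0.09 over all genes, and 4 members had an unadjusted p under 0.05.

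**Figure D2:**
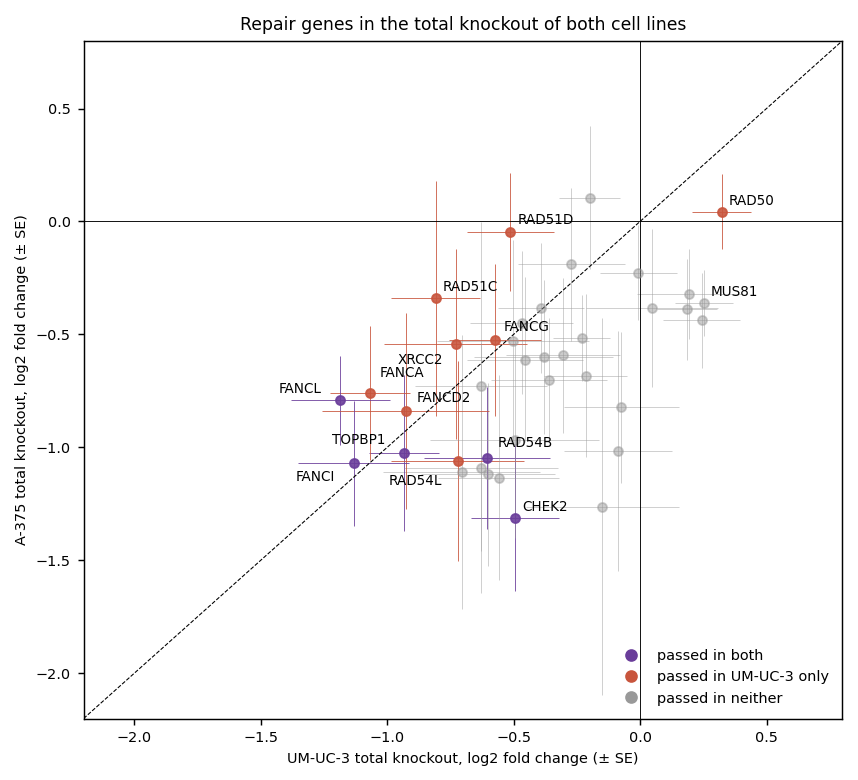
Log2 fold change in the UM-UC-3 total knockout (x axis) and the A-375 total knockout (y axis) for the 39 repair genes, with standard errors as bars and the line of equal change dashed. The 5 genes that passed in both lines lie below 0 on both axes, and MUS81 lies at 0.25 in UM-UC-3 and -0.36 in A-375.

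In the long-form knockout of A-375 the repair genes leaned the other way without passing the threshold. The highest values were those of FANCD2 (0.74 ± 0.23, adjusted p = 0.104), EME1 (0.63 ± 0.23, 0.214) and BRCA1 (0.57 ± 0.27, 0.420), in the authors' deposited table. The medians of the 7 role groups lay between 0.12 for the ID complex with FAN1 and 0.43 for junction processing. CHEK2 was at 0.02 ± 0.17, FANCI at 0.12 ± 0.14 and FANCL at 0.21 ± 0.14 in the long-form knockout, in the authors' deposited table. Both A-375 tables may share controls, and the long-form table rests on 2 knockout libraries.

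Tested as the long-form fold change minus that of the total knockout, all 39 differences were above 0 and 9 of 39 passed (against 2.66% of all 13928 genes tested on the higher side, 1.79% on the lower and 4.46% on either). FANCL differed by 1.00 ± 0.24 (adjusted p = 0.00427) and FANCI by 1.19 ± 0.31 (0.00951), from the authors' deposited tables. EME1 differed by 1.33 ± 0.36 (adjusted p = 0.0127), CHEK2 by 1.33 ± 0.36 (0.0154) and TOPBP1 by 1.33 ± 0.40 (0.0304). RAD54B, SLX4, FANCD2 and BLM passed with differences of 0.75 to 1.58 and adjusted p-values of 0.0344 to 0.0382. Their call ended when each table was centred on its median (adjusted p of 0.0526 for RAD54B, 0.0537 for FANCD2, 0.0538 for BLM and 0.0700 for SLX4), which left 5. The centring also put RAD50 below 0. BRCA2 had a difference of 1.48 ± 0.88 (95% interval -0.24 to 3.19) and BRCA1 did not pass either. The median difference of the members was 0.89, against 0.07 over all genes. If the tables share controls, the SE used here is too large.

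**Figure D3:**
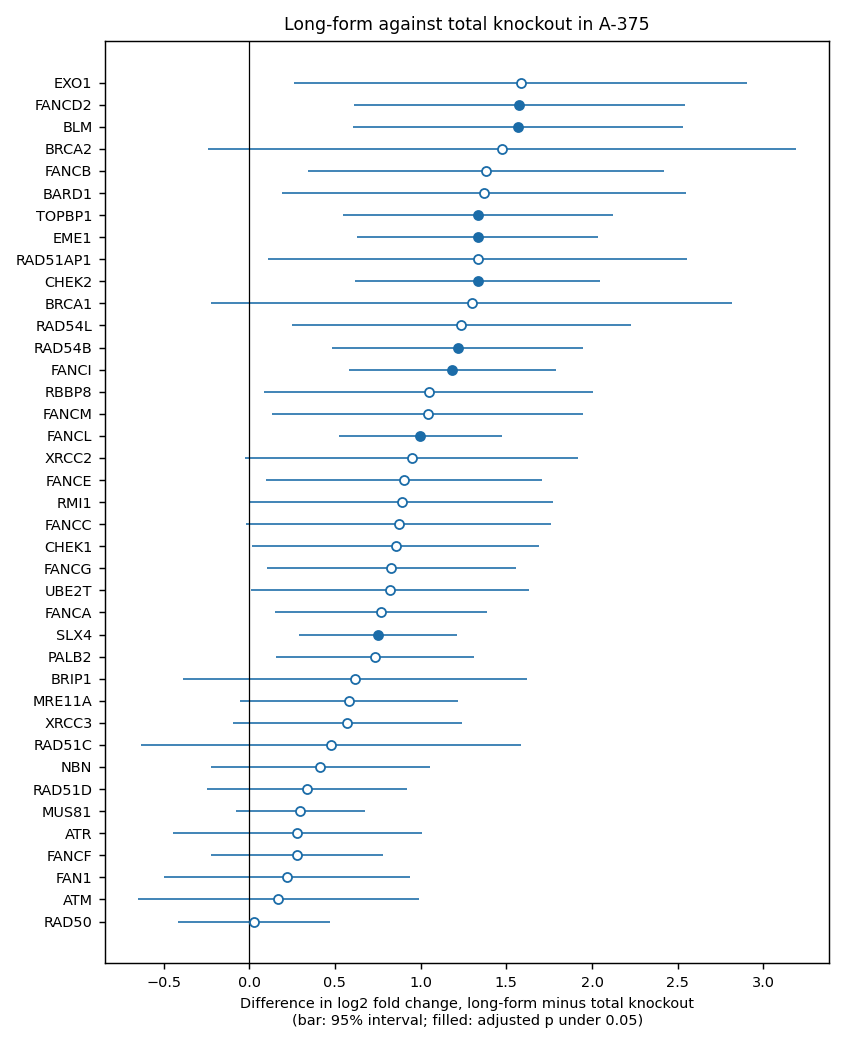
Difference in log2 fold change, long-form minus total knockout of A-375, for each of the 39 repair genes (x axis), with its 95% interval as a bar, ordered by size. All 39 points lie above 0 (RAD50, at 0.03, lay below 0 after centring), and the 9 filled points have an adjusted p under 0.05.

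Other genes of the same pathways also fell more often than they rose. Of 72 further recombination and Fanconi genes with an entry in the A-375 total table, 7 fell and 2 rose (median -0.28), and of 71 in UM-UC-3, 25 fell and 5 rose (median -0.15), in the authors' deposited tables. In the A-375 total knockout these included RNF168, the ubiquitin ligase that marks chromatin at breaks (-1.14 ± 0.31, adjusted p = 0.00515), FAAP20, a core complex protein that binds FANCA (-0.91 ± 0.27, 0.0156), and SMC6, of the SMC5-SMC6 complex (-0.69 ± 0.17, 0.00183), in the authors' deposited table. SWI5, a strand-exchange cofactor, rose there by 0.63 ± 0.18 (adjusted p = 0.00948). In UM-UC-3 they included SLF1, which links RAD18 to SMC5-SMC6 (-1.49 ± 0.24, adjusted p = 2.29e-08), H2AFX, the histone variant phosphorylated at breaks (-1.08 ± 0.18, 8.01e-08), and TOP3A, the topoisomerase that works with BLM and RMI1 (-0.61 ± 0.08, 5.56e-13), in the authors' deposited table. HUS1, of the checkpoint clamp, rose in UM-UC-3 by 0.51 ± 0.10 (adjusted p = 6.86e-06).

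Other repair pathways had medians nearer to 0 in UM-UC-3. Among 16 end-joining genes 4 fell and 0 rose in the A-375 total knockout (median -0.40), among them PRKDC, the catalytic subunit of the DNA-dependent kinase (-0.94 ± 0.25, adjusted p = 0.00571), and 4 fell and 5 rose in UM-UC-3 (median -0.02), in the authors' deposited tables. In mismatch repair 2 of 7 genes, MSH3 and PMS2, fell in the A-375 total knockout, and the medians were -0.51 in A-375 and 0.12 in UM-UC-3. In nucleotide excision repair 1 of 18 genes fell and 2 rose in the A-375 total knockout (median -0.16), and 2 of 17 fell and 2 rose in UM-UC-3 (median 0.10). None of these lists had a gene that passed in the long-form knockout.

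Some replication fork genes fell in both lines, and some proliferation markers fell in UM-UC-3. Of 41 replication fork genes 5 fell in the A-375 total knockout (12.2%, against 5.74% of all genes), with a median of -0.59. In UM-UC-3 29 fell (70.7%, against 14.2% of all genes), with a median of -0.79. None was higher in either, in the authors' deposited tables. In UM-UC-3 TYMS, which makes thymidylate, fell by 2.35 ± 0.25 (adjusted p = 2.69e-18), and in the A-375 total knockout POLA1, the catalytic subunit of the primase-polymerase, fell by 1.12 ± 0.20 (8.46e-06), in the authors' deposited tables. Of 19 proliferation markers, 18 lay below 0 in the A-375 total knockout with a median of -0.92, of which 0 passed and 1 had an unadjusted p under 0.05. In UM-UC-3 all 19 lay below 0 with a median of -0.46. Of these, 5 fell (26.3%, against 14.2% of all genes): E2F1, AURKB, TPX2, BIRC5 and AURKA. In the long-form knockout 18 of 19 lay above 0 (median 0.25) and none passed. The median of the proliferation markers was thus lower than that of the repair genes in A-375 and about equal to it in UM-UC-3, and their part in the result was not tested.

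**Figure D4:**
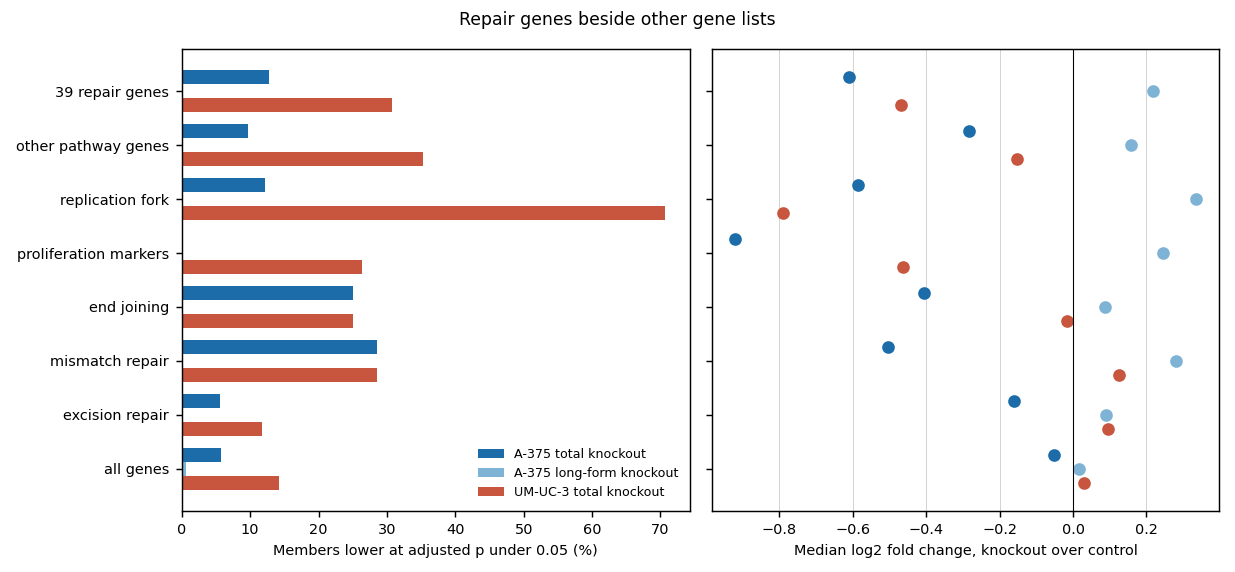
Left, the percentage of each gene list that was lower at an adjusted p under 0.05 in the 3 knockout comparisons, and right, the median log2 fold change of the list, from the authors' deposited tables. The repair genes have medians of -0.61, 0.22 and -0.47 in the A-375 total, A-375 long-form and UM-UC-3 total knockouts, and the replication fork genes -0.59, 0.34 and -0.79.

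Many of these genes have an annotated start near that of a gene on the other strand. By GENCODE release 29 on hg38, 20 of the 39 have a gene on the opposite strand that starts within 1000 bases. For 13 of them that partner had an entry in both total-knockout tables. Each start was taken as the outermost annotated end of the gene, and some genes have other starts. The start used for RAD51D (35121522) lies outside its printed promoter window, so a shared promoter is not shown for these pairs. BRCA1 was paired with NBR1 by its outermost end alone (43170245), which lies 236 bases from the start of NBR1. Other starts of BRCA1 were not searched for neighbours. In the A-375 total knockout 0 of 13 partners passed, where 10.8% of all genes did. Their median was -0.04, against -0.52 for the 13 repair genes beside them, in the authors' deposited table. In all 13 pairs of the A-375 total knockout the partner had the higher fold change, and in UM-UC-3 it did in 10 of 13 (median -0.07 for partners, -0.47 for repair genes). In UM-UC-3 3 partners fell and 2 rose: MRPL27, a mitochondrial ribosomal protein beside EME1, fell by 0.78 ± 0.15 (adjusted p = 2.01e-06), and NBR1, an autophagy receptor beside BRCA1, rose by 0.41 ± 0.12 (0.00232), in the authors' deposited table. FKBP3 beside FANCM (-0.51 ± 0.16, adjusted p = 0.00735) and HNRNPK beside RMI1 (-0.31 ± 0.10, 0.0124) fell, and MOSPD2 beside FANCB rose (1.21 ± 0.18, 1.6e-09), in the authors' deposited table for UM-UC-3. HSCB starts within the annotated span of CHEK2 and within its printed promoter window. HSCB was at -0.47 ± 0.34 in the A-375 total knockout and -0.21 ± 0.14 in UM-UC-3, neither of which passed. The kit keeps the strand of the RNA, and the sources used here do not say whether the counting used it; 16 members overlap a coding gene on the other strand.

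**Figure D5:**
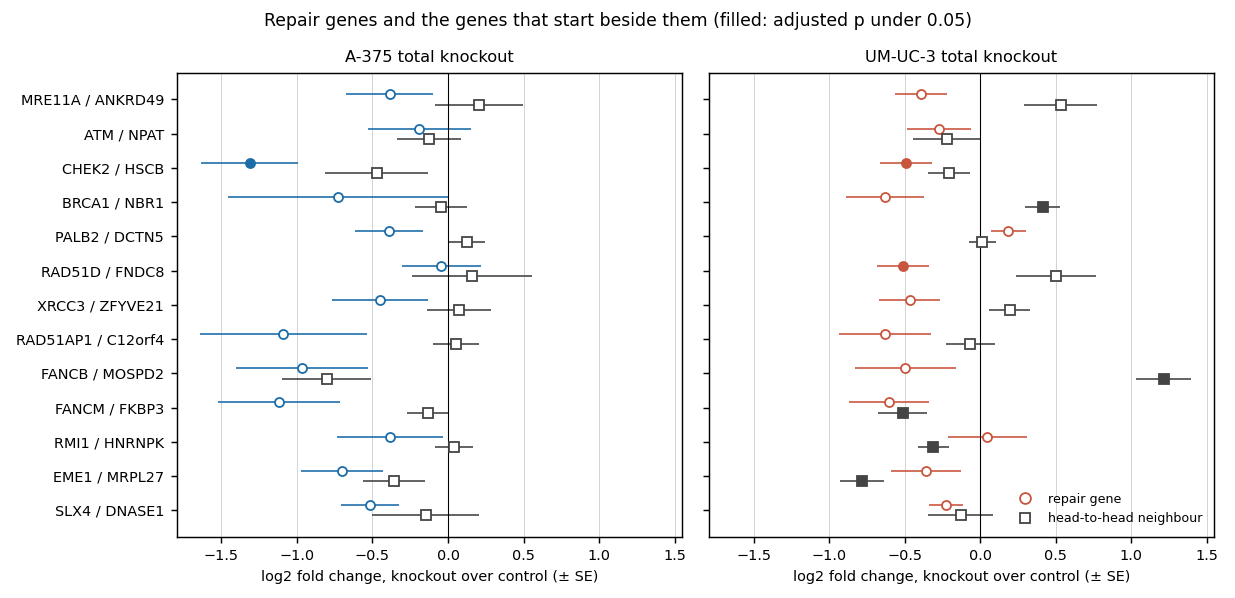
Log2 fold change (x axis, with standard errors as bars) of each repair gene (circles) and of the gene that starts within 1000 bases on the opposite strand (squares), for the 13 pairs with entries for both, in the total knockout of each line; filled symbols have an adjusted p under 0.05. In A-375 every partner lies to the right of its repair gene, and in UM-UC-3 10 of 13 do.

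Per kilobase of the longest annotated transcript, the mean normalized count over the libraries of a fit was highest for UBE2T in the authors' deposited tables of the A-375 total (633) and long-form (2396) knockouts. In UM-UC-3 it was highest for NBN (1625), the break-end protein. FAN1 was lowest in all 3, at 24.6 per kilobase in the total and 80.2 in the long-form knockout of A-375, and at 45.8 in UM-UC-3. Levels from different tables were scaled separately and are not compared.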

How the data were processed

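Groups of the 33 RNA libraries follow the labels. Per the submitters' processing notes, HISAT2, SAMtools, StringTie, DESeq2 and hg38 were used. Tool versions, gene annotation, filters, the model formula and which controls were fitted: not given in the sources used here. Each of the 3 deposited files is DESeq2 output without values per library, so depth per sample is unknown and precision is taken from the standard error. The deposited signal column holds the mean normalized count per gene. The deposited log2 columns are knockout over control, with a standard error. The deposited score column is the Wald statistic, and the deposited p-value columns give its p with and without adjustment, and a q-value, as the file headers name them. No source used here says whether fold changes were shrunk, or that all libraries of a clone were treated as 1 sample, so the p-values may measure a spread that is partly technical. Spreadsheet dates replaced 23, 24 and 20 gene names in the A-375 total, A-375 long-form and UM-UC-3 tables, and these were tested but not named.

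A gene was called at a deposited adjusted p under 0.05, over the whole table. Differences between tables were divided by the root of their summed squared standard errors, given a 2-sided normal p and adjusted by Benjamini-Hochberg over genes whose mean normalized count reached 10 in both; this script was tested on simulated data. Intervals are 95% and normal. The members and lists were chosen with earlier results of these data known. Any member may be named, and of other lists up to 6 called genes per table with the smallest adjusted p. Gene places and transcript lengths are from GENCODE release 29 on hg38, and MRE11A is MRE11 there. Python 3.11.15, pandas 2.3.3, numpy 2.4.6, scipy 1.17.1 and matplotlib 3.10.9 were used. Other thresholds, the q-value, minimum mean counts and centring on the table's median were tried as alternatives. Some genes of the lists are not reported here.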

Additional observations from a re-analysis of the deposited data

Results flagged for a closer look

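MUS81, the junction nuclease, had a log2 fold change of 0.25 in the UM-UC-3 total knockout and -0.36 in the A-375 total knockout, in the authors' deposited tables. The difference of 0.614 on the log2 scale passed the test of the difference itself (normal test, Benjamini-Hochberg adjusted p = 0.0164, and 0.0150 to 0.0427 over the alternatives), which is why it is listed. MUS81 passed in neither table alone.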

How the results depend on the processing

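No paired analysis was possible because the deposited tables hold no values per library, and for the same reason no replicate could be left out. At a threshold of 0.01, 3 repair genes were lower in the A-375 total knockout, 6 were lower and 0 higher in UM-UC-3, 0 differed between lines and 2 between the A-375 designs. At 0.1, 13 were lower in A-375, 19 were lower and 2 higher in UM-UC-3, and 2 differed between lines. With the q-value, 11 were lower in A-375, and 21 were lower and 2 higher in UM-UC-3. The shares of all genes at these other settings were not computed, so such counts cannot be read against the shares given at 0.05. The q-value also gave 7 lower and 1 higher end-joining genes and 3 lower excision repair genes in A-375, and 10 lower proliferation markers and 1 higher mismatch repair gene in UM-UC-3. Centring each table on its median left 5 genes higher in the long-form minus total difference and 3 lower replication fork genes in A-375. Centring turned 4 values that had not passed to the other side of 0: RAD51D in the A-375 total knockout (adjusted p = 0.991, log2 0.01), FANCA in the long-form knockout (0.989, -0.01), BRIP1 in the line difference (0.964, -0.06) and RAD50 in the long-form minus total difference (0.947, -0.04). Among single genes, BRCA1 in UM-UC-3 passed after centring (0.0387) and over genes with a mean count of at least 100 (0.0481), and FANCM in A-375 passed with that minimum (0.0484). MRE11A, XRCC3 and BLM in UM-UC-3 passed after centring, at 0.0434, 0.0468 and 0.0466. Minimum mean counts kept each count of called members within 1.5 times its main value. The cause of these shifts was not tested. With 2 long-form knockout libraries and wide errors in A-375, genes that did not pass are not shown to be unchanged.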
